A study of Mus musculus with 18 samples.

Results

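Imprinted genes are read mainly from the copy inherited from 1 parent, and 7 of them were followed here on cDNA arrays of differentiating mouse embryonic stem (ES) cells: Sgce, H19, Igf2, Igf2r, Mest, Peg3 and Grb10. Every spotted cDNA clone that the platform annotation pairs with 1 of these 7 symbols and with no other gene was taken, which gave 17 clones among 15360 on the arrays (9866 of them with 1 gene symbol). H19 had 8 clones, Sgce, Igf2 and Peg3 had 2 each, and Igf2r, Mest and Grb10 had 1 each. The samples were undifferentiated IMT11 ES cells, kept on gelatin in serum with leukaemia inhibitory factor (LIF, the cytokine that holds mouse ES cells undifferentiated), which are Day 0 (D0), and embryoid bodies (EBs, cell aggregates that begin to differentiate in suspension) on Days 1 to 4. EBs were started from 1000 IMT11 cells in hanging drops, and the culture medium either lacked LIF (D1-LIF through D4-LIF) or contained it (D1+LIF through D4+LIF), so that all 9 conditions share 1 cell line. Each condition had 2 arrays of separate biological repeats, one carrying the sample in Cy3 and one in Cy5, against a pooled control that the labels describe as Day 1 to 4 EBs and the methods as Day 0 to 4 material.

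Imprints are carried by DNA methylation at CpG dinucleotides of control regions, set in the germ line and kept through early development. Sgce encodes epsilon-sarcoglycan, a membrane protein of the sarcoglycan family, and is read from the paternal copy, next to Peg10. Igf2 (a fetal growth factor, paternal) and H19 (a noncoding RNA, maternal) are neighbours under 1 control region, Igf2r (maternal) encodes the receptor that clears Igf2, and Grb10 (maternal in most tissues) encodes an adaptor that dampens insulin and IGF receptor signalling. Mest (a hydrolase-fold protein) and Peg3 (a zinc-finger protein) are paternally expressed. The arrays measured summed RNA from both copies, so they carry no reading of imprinting itself, and fewer cells of a type cannot be told apart from less RNA per cell.

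As examples of CpGs beside imprinted genes, the 250 bases before the RefSeq start of 2 members are printed with each CpG in capitals. Whether these bases belong to a control region was not tested. They are from the mouse build GRCm38.p6, 5′ to 3′ on the strand of the gene (minus for Peg3, at chr7:6730420-6730669, and plus for Mest, at chr6:30737800-30738049).
Peg3 promoter: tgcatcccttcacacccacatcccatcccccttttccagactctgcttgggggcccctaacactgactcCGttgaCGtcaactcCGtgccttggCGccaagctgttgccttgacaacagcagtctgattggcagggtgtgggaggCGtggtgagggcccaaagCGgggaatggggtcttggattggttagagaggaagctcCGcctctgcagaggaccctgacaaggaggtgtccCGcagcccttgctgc
Mest promoter: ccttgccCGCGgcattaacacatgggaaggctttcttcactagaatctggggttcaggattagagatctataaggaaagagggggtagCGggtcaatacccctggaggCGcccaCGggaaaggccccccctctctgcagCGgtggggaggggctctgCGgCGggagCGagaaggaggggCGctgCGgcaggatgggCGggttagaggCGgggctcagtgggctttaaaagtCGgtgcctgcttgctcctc
The Mest window, which of its 3 RefSeq promoters held the most CpGs (tied with another), had 14 CpGs, and 29.4% of the 32851 promoters in the table had at least as many. The Peg3 window had 8 CpGs, reached by 43.0% of promoters, and methylation was not measured here. H19 is also the host of a microRNA, miR-675, whose mature forms follow with the seed (bases 2 to 8) in capitals; no array spot measured them as such.
mmu-miR-675-5p: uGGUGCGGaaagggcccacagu
mmu-miR-675-3p: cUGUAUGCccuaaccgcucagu

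Values are log2 of the deposited ratio, averaged over the duplicate spots of a clone and centred on the median of each array, so that 0 is the array's median clone. The files do not state which channel is the numerator. A ratio of sample over pool was taken as likely from the order of the channels in the labels and the signs of the study's folds, and the sign of the Cy3 arrays was also turned as an alternative. Over the 8740 clones measured on all 18 arrays, the paired arrays of a condition correlated at -0.10 on average, against 0.74 for Cy5 arrays of different conditions and 0.36 for Cy3 arrays of different conditions, so each dye is given apart. The D0 Cy3 array stood apart, with an SD over clones of 0.99 against 0.20 to 0.40 on the other Cy3 arrays. The D0 Cy5 array had instead the smallest SD of its dye, 0.45 against 0.66 to 1.45 on the other Cy5 arrays. Each array was printed as 2 slides, and the slide medians lay apart on several arrays: slide 2, which holds 14 of the 17 member clones, was 0.79 above the array median on D4+LIF Cy5 and 0.62 above on D2+LIF Cy5, and slide 1 was 2.16 below on D0 Cy3. Slide 1 was also 1.59 below on D2-LIF Cy5 and 0.53 above on D1+LIF Cy5. Values centred within each slide are also given below for the members that this centring moved most. Of 34560 spots, 15249 had no value on D2-LIF Cy5 and 7973 on D1+LIF Cy5, so many clones fall outside the 8740. How those 8740 clones divide between the slides is not given here. Of the 17 clones, 15 had a value on every array, and H19 BG063261 and Igf2 BG064815, on slide 1, lacked a Cy5 value on 2 arrays and on 1 array, so they were tested in a second fit that needed only 1 measured array per condition, in which the conditions concerned rest on Cy3 alone.

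The 2 Sgce clones did not behave alike. Clone CK334832 was lower in EBs than in ES cells on both dyes, whereas clone BG072850 was nearly flat on Cy3 and above D0 in EBs on Cy5, by 0.23 in D4-LIF up to 1.39 in D4+LIF. On the Cy3 arrays, CK334832 was at 1.65 in D0, at -0.36, 0.07, -1.01 and -0.04 on Days 1 to 4 without LIF, and at -0.12, -0.05, -0.27 and -0.36 on Days 1 to 4 with LIF. On the Cy5 arrays it was at -1.45 in D0, at -4.09, -3.92, -3.61 and -2.22 without LIF, and at -2.29, -2.39, -3.53 and -4.08 with LIF. D0 was thus the highest of the 9 values on each dye, without overlap with EBs, and every Cy5 value lay below its Cy3 partner, the difference running from -3.99 to -2.18. A mean difference between the dyes as low as this was found in 2.09% of tested clones. On some arrays the 2 duplicate spots of CK334832 carried an identical ratio. These were D1-LIF, D4-LIF and D1+LIF through D4+LIF on Cy3, and D1+LIF on Cy5. No other member clone showed this on any array, and the cause was not tested. BG072850 ran from -0.27 to -0.01 on Cy3, with D0 at -0.17, and on Cy5 it was at -0.09 in D0, at 0.31, 0.24, 0.28 and 0.14 without LIF and at 0.33, 0.90, 0.40 and 1.31 with LIF. Its 2 highest values, D2+LIF and D4+LIF on Cy5, were 0.28 and 0.52 once centred within the slide.

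**Figure D1:**
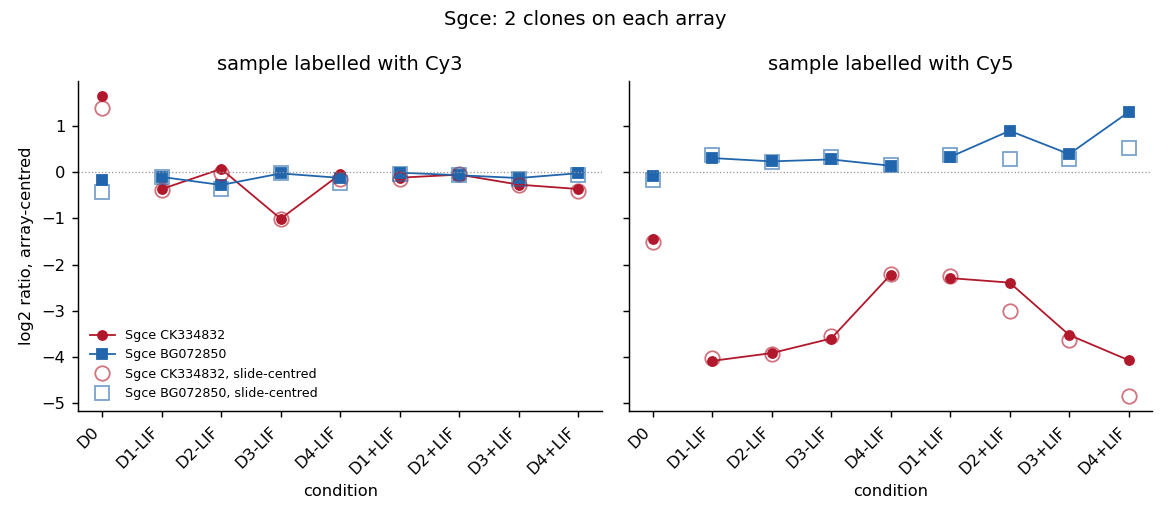
Log2 ratios of the 2 Sgce clones (vertical axis, 0 = median of the array) in the 9 conditions (horizontal axis), with Cy3-labelled samples on the left and Cy5-labelled samples on the right. Filled symbols are centred on the array and open symbols on the slide; clone CK334832 is highest in D0 on both dyes, at 1.65 and -1.45, and BG072850 stays between -0.27 and 1.31.

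Against D0, CK334832 fell in 4 of the 8 EB conditions in the limma fit over 8740 clones. The log2 difference was -2.33 ± 0.45 (SE) in D1-LIF (limma adjusted p = 0.0139), -2.41 ± 0.45 in D3-LIF (adjusted p = 0.0162), -2.001 ± 0.45 in D3+LIF (adjusted p = 0.0351) and -2.32 ± 0.45 in D4+LIF (adjusted p = 0.0149). The F test over all 9 conditions, which 0.0343% of tested clones passed, did not pass for this clone (limma adjusted p = 0.172). These comparisons share the D0 arrays, so the 4 calls are not independent. In D1-LIF, D3+LIF and D4+LIF the Cy3 value came from duplicate spots with an identical ratio, and in D3-LIF it did not. In the other four EB conditions the differences lay between -2.03 and -1.23 and did not pass, although the value on each dye was below D0 there too. No other member clone passed in any comparison with D0, and the shares of all tested clones called were 5.65% for D1-LIF, 3.68% for D3-LIF, then 3.31% for D3+LIF and 4.38% for D4+LIF. Calls in the lower direction alone were 3.3% of tested clones in D3+LIF and 4.32% in D4+LIF, and all calls were lower in the other two. The share called was 0.0114% for D2-LIF and likewise for D1+LIF, and 0% for both D4-LIF and D2+LIF.

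The calls against D0 depended on how the arrays were treated. When the Cy3 arrays had their sign turned, CK334832 differed from D0 by -0.31 on Day 1 and 0.25 on Day 3 without LIF, by -0.08 on Day 3 and -0.31 on Day 4 with LIF, and no member clone passed. None passed either without the D0 Cy3 array, with arrays scaled to equal spread, after quantile normalization, without the dye term or with only the arrays compared, and the D4+LIF difference alone held under centring within each slide, at -2.57 (limma adjusted p = 0.0400). Under that centring BG072850 also passed in D4+LIF, in the opposite direction, at 0.52 (limma adjusted p = 0.0421). Averaging both Sgce clones left 1 call, D1-LIF at -1.05 ± 0.27 (SE; limma adjusted p = 0.0437).

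**Figure D2:**
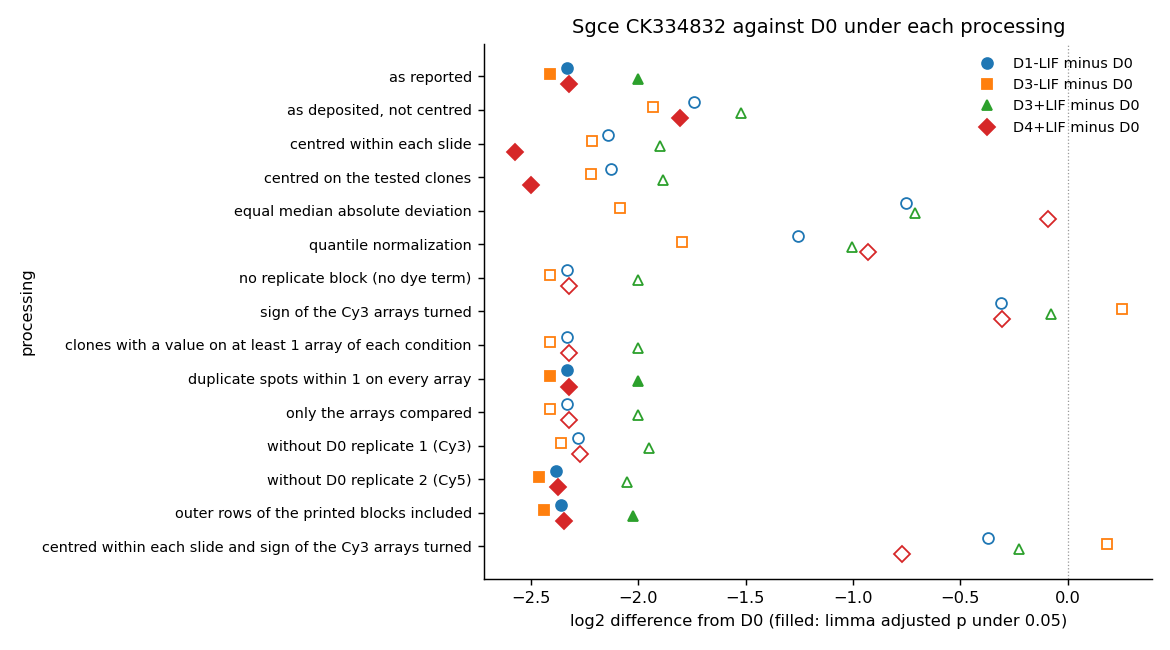
Log2 difference of Sgce clone CK334832 from D0 (horizontal axis) in the 4 conditions called, under each way of processing the arrays (vertical axis). Filled symbols passed the limma threshold and open symbols did not; the values as reported lie between -2.41 and -2.001, and turning the sign of the Cy3 arrays brings all 4 to between -0.31 and 0.25.

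Against the pooled control, CK334832 was at 0.10 ± 0.32 in D0 (SE; limma adjusted p = 0.947), and it fell below the pool on Day 1 (-2.23) and Day 3 (-2.31) without LIF and on Day 3 (-1.90) and Day 4 (-2.22) with LIF, with limma adjusted p between 0.00109 and 0.00332. In the same fit 8.38%, 5.88%, 5.87% and 39.1% of all tested clones passed in those 4 conditions, and no member passed in D1+LIF (3.23% of all clones) or D2+LIF (3.1%). The estimates of CK334832 in the other EB conditions were below the pool as well, without passing. They were -1.92 in D2-LIF, -1.13 in D4-LIF, -1.21 in D1+LIF and -1.22 in D2+LIF. A pool of these same samples could not lie near D0 and above every EB condition, so these values are not read as true differences from the pool. The CK334832 values average dyes that lay apart. D0 was at 1.65 on Cy3 and -1.45 on Cy5, D1-LIF at -0.36 and -4.09, and D3-LIF at -1.01 and -3.61. D3+LIF was at -0.27 and -3.53, and D4+LIF at -0.36 and -4.08. As the numerator is not stated, the side of the pool on which the Cy3 values lie is not certain. Comparisons with the pool were read only in the reported fit, without alternatives. Of the 15 member clones, 3 were higher than the pool, all in D4+LIF: Sgce BG072850, H19 BG075176 and Peg3 BG076150, in the condition where 2469 clones passed as higher and slide 2 was displaced on Cy5.

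The step from D3-LIF to D4-LIF, for which the study listed this Sgce clone from these arrays, was the largest for CK334832 among the member clones. It went from -1.01 to -0.04 on Cy3 and from -3.61 to -2.22 on Cy5, a difference of 0.96 and of 1.38, and the limma estimate was 1.17 ± 0.45 (SE). Its D4-LIF Cy3 value came from duplicate spots with an identical ratio, 0.873. Of the 5758 tested clones with 1 gene symbol, 0.799% had as large an estimate. The unadjusted p was 0.0244 in the limma fit and the adjusted p was 1.00. None of the 8740 tested clones (0%) passed in this step, and 145 had an unadjusted limma p under 0.05. Because the study listed the clone for this step from the same arrays, the values are a description and not separate evidence. The study also tested Sgce by RT-PCR (amplification of DNA copied from RNA) in replicate samples of ES cells and EBs. Those measurements are not on the arrays and were not examined here. BG072850 was 0.10 lower on Cy3 and 0.14 lower on Cy5, with an estimate of -0.12 ± 0.29 (SE; limma adjusted p = 1.00), and the average of both clones was 0.53 ± 0.27 (SE; limma adjusted p = 1.00).

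With LIF, the same step in CK334832 was -0.09 on Cy3 and -0.55 on Cy5, with an estimate of -0.32 ± 0.45 (SE; limma adjusted p = 0.719). In both D3+LIF and D4+LIF the Cy3 duplicate spots of this clone had identical ratios. The difference between the steps without and with LIF was 1.50 ± 0.64 (SE), and its unadjusted p was 0.0389 in the limma fit but the adjusted p was 0.836, with 0 of 8740 clones past the threshold (0%) and 117 under 0.05 unadjusted. On Day 4 itself the clone was higher without LIF than with LIF by 0.32 on Cy3 and by 1.86 on Cy5 (limma adjusted p = 0.299), and on Day 1 the difference without minus with LIF was -0.25 on Cy3 and -1.80 on Cy5 (limma adjusted p = 1.00). With the Cy3 sign turned, the step without LIF was 0.21.

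The estimates of the other 15 member clones in the step without LIF ran from -0.27 for Grb10 BG065213 to 0.24 for Peg3 BG076150, each within 1 SE of 0. For Grb10 the dyes were opposed, at 0.57 on Cy3 and -1.10 on Cy5, so that its estimate averages changes on the scale of those of CK334832. Mest was opposed as well, at 0.19 on Cy3 and -0.63 on Cy5. Over all 17 clones 0 passed, 9 were above 0 and 8 below, and the median was 0.01, against 0.06 over all tested clones. Both dyes were above 0 in 6 of the 17 and below 0 in 2, while 37.9% of all tested clones were above 0 on both dyes and 19.8% below. In the step with LIF, H19 BG075176 had the highest estimate, 0.89 ± 0.35 (SE; limma adjusted p = 0.432), 0 of the 17 passed (0% of all clones), and the median of all tested clones was itself 0.31.

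**Figure D3:**
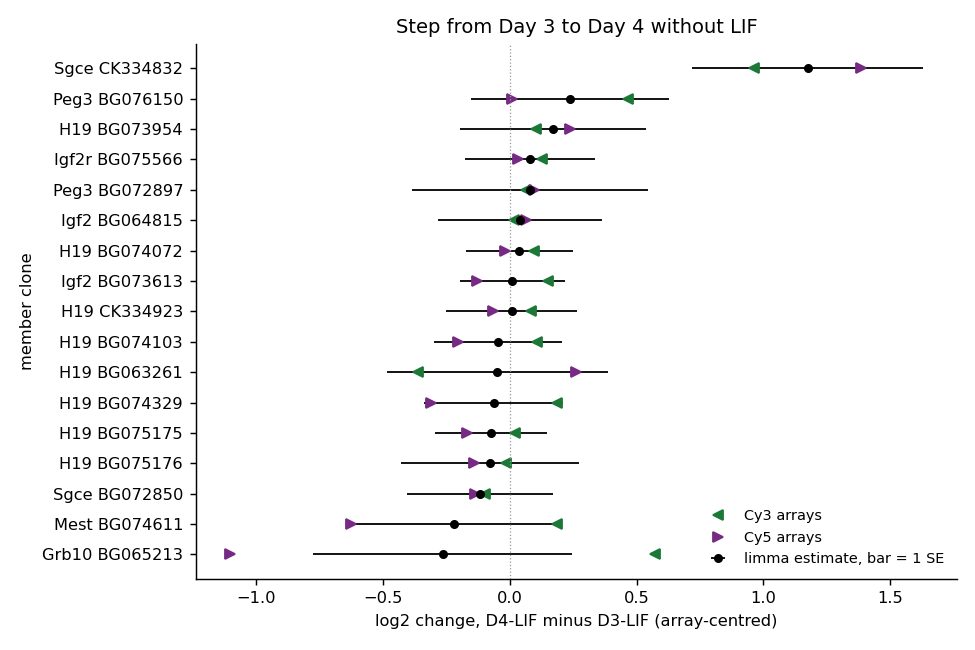
Log2 change from D3-LIF to D4-LIF (horizontal axis) for the 17 member clones (vertical axis). Black points are limma estimates with bars of 1 SE, and triangles are the Cy3 and Cy5 arrays apart; Sgce CK334832 stands at 1.17 with both dyes above 0.9, and the other estimates lie between -0.27 and 0.24, with Grb10 at 0.57 on Cy3 and -1.10 on Cy5.

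The clones whose 9 dye-adjusted condition means followed CK334832 most closely, by Pearson r over the 9 conditions, were Rpl6 BG069870 (r = 0.97), Rps4x BG073248 (0.96), Bloc1s2 CK335182 (0.95), Rpl23a BG072862 (0.95) and Eef1a1 CK335068 (0.95). Rpl6, Rps4x and Rpl23a encode ribosomal proteins and Eef1a1 an elongation factor of translation, all very abundant messages, and Bloc1s2 encodes a subunit of a complex of lysosome-related organelles. The difference of these 5 clones from D0 in D3-LIF ran from -2.09 to -0.69 on the log2 scale, and their step to D4-LIF from 0.26 to 0.92. Over 5756 clones the median r was 0.14 and 240 clones had an r above 0.8. The other Sgce clone had an r of -0.44. All 9 points of each r share the same 18 arrays, so the values are descriptions.

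H19 clones gave no common time course. Their step without LIF ran from -0.08 to 0.17 and the gene average over 7 clones was -0.01 ± 0.23 (SE; limma adjusted p = 1.00). Over the 21 pairs of the 7 clones with full data, r of the condition means ran from -0.43 to 0.84, with a median of 0.15. In D0 the 8 clones spanned -1.52 to 0.84 on Cy3 and -0.16 to 0.14 on Cy5, and the lowest of these, BG063261 on slide 1, was at 0.64 on Cy3 once centred within its slide. The estimates of that clone against D0 were 0.63 to 1.08 in the 8 comparisons, with limma adjusted p from 0.279 to 0.693, and slide centring put all 8 EB values below D0 on Cy3. Without the D0 Cy5 array all 8 comparisons of this clone passed as higher than D0, at 1.34 to 1.70, against the D0 Cy3 array alone, on which slide 1 was displaced. BG073954 and CK334923 were at 0.84 and 0.83 in D0 on Cy3 and between -0.16 and 0.05 in every EB condition there, but on Cy5 they were at -0.16 and -0.13 in D0, inside their EB values. The other five clones lay between -0.19 and 0.49 on every Cy3 array.

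On Cy5 the H19 clones spread most in D4+LIF, from -0.26 to 1.55, and from -1.04 to 0.76 centred within the slide. BG075176 was the highest there, at 1.55, after 0.86 in D2+LIF and at most 0.13 in the other seven conditions, while on Cy3 it stayed between -0.19 and 0.08.

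**Figure D4:**
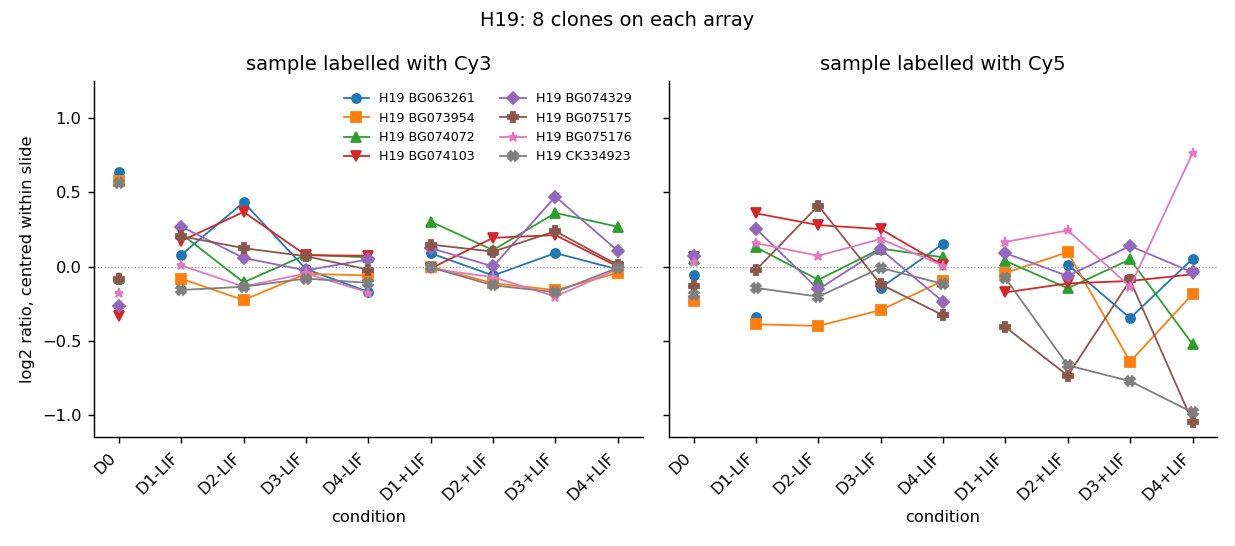
Log2 ratios of the 8 H19 clones (vertical axis, 0 = median of the slide) in the 9 conditions (horizontal axis), by dye. The clones cross between conditions on both dyes, and in D4+LIF on Cy5 they span -1.04 to 0.76.

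Igf2 clone BG073613 was the other member below D0 in all 8 EB conditions on both dyes. On Cy3 it was at 0.20 in D0, at -0.44, -0.06, -0.16 and -0.01 on Days 1 to 4 without LIF, and at -0.13, -0.24, -0.16 and 0.05 with LIF. On Cy5 it was at 0.22 in D0, at -0.59, -0.35, -0.28 and -0.41 without LIF, and at -0.55, -0.43, -0.35 and -0.50 with LIF. Such a pattern, all EB values under D0 on each dye, was found in 2 of the 15 complete member clones and in 9.43% of all tested clones, while the reverse pattern, seen in 1.7% of clones, was found in no member. Within-slide centring left BG073613 with 7 of 8 conditions below D0 on Cy3. The largest difference was -0.72 ± 0.21 in D1-LIF (SE; limma adjusted p = 0.0654), and the other seven lay between -0.55 and -0.41 without passing. The second Igf2 clone, BG064815, had another course: on Cy5 it was at -0.05 in D0 but at 0.75 in D1+LIF and 0.36 in D3+LIF, and on Cy3 it was at -0.75 in D0, or 1.40 centred within its slide. Its estimate was 0.70 in D1+LIF and 0.71 in D3+LIF against D0 (limma adjusted p = 0.213 and 0.258). Slide centring turned the mean direction of both: the difference from D0 was then -1.53 on Cy3 and 0.22 on Cy5 in D1+LIF, and -1.13 and 0.44 in D3+LIF.

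Igf2r BG075566 was at 0.62 in D0 on Cy3 against -0.16 to 0.11 in EBs, and at -0.06 in D0 on Cy5 against -0.43 to 0.36 in EBs, so D0 stood above EBs on Cy3 and inside their range on Cy5. The highest of these, D4+LIF on Cy5, was -0.43 centred within the slide. Its lowest estimate against D0 was -0.58 ± 0.26 in D3+LIF (SE; limma adjusted p = 0.350). Grb10 BG065213 differed from D0 by -1.73 ± 0.51 in D1+LIF (SE; limma adjusted p = 0.130) and -1.50 ± 0.51 in D1-LIF (limma adjusted p = 0.118). Centred within its slide, slide 1, the D1+LIF difference was -4.31 on Cy3 and -1.85 on Cy5, and it did not pass either. The clone was at 2.10 in D0 on Cy3, or 4.26 centred within the slide, and at most 0.71 in EBs (0.96 centred within the slide), whereas on Cy5 D0 was at -0.59 and EBs ran from -1.86 to 0.07, with D2-LIF and D3-LIF above D0. Centring within the slide moved the D2-LIF Cy5 value of this clone from -0.35 to 1.24, the highest of its slide-centred Cy5 values. Without the D0 Cy5 array 5 of its 8 comparisons with D0 passed, which left the D0 Cy3 array alone as the reference and raised the calls of all clones over the 8 comparisons from 1490 to 3537, and its duplicate spots differed by up to 0.90.

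Mest BG074611 was at 1.10 in D0 on Cy3 and between -0.19 and 0.41 in EBs. On Cy5 it was at -0.37 in D0, at -0.57, -0.05, -0.43 and -1.06 on Days 1 to 4 without LIF, and at -1.10, -0.36, 0.18 and -1.51 with LIF. The groups therefore separated on Cy3 and overlapped on Cy5, and the lowest estimate, -1.07 ± 0.39 in D4+LIF, did not pass (SE; limma adjusted p = 0.130). The D4+LIF Cy5 value was -2.29 centred within the slide. The 2 Peg3 clones had an r of 0.55 over the condition means. BG072897 was at 1.14 in D2+LIF, 1.55 in D2-LIF and 1.44 in D4+LIF on Cy5 and at 0.05 to 0.30 in the other six conditions, but on Cy3 those 3 conditions were at -0.09, -0.11 and 0.00. BG076150 was high in D2+LIF (1.00) and D4+LIF (1.47) on Cy5, and not in D2-LIF (0.05). Centred within the slide, the D4+LIF Cy5 values of BG072897 and BG076150 were 0.65 and 0.69, their D2+LIF Cy5 values 0.52 and 0.38, and the D2-LIF Cy5 value of BG072897 was 1.54, and neither Peg3 clone passed against D0.

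**Figure D5:**
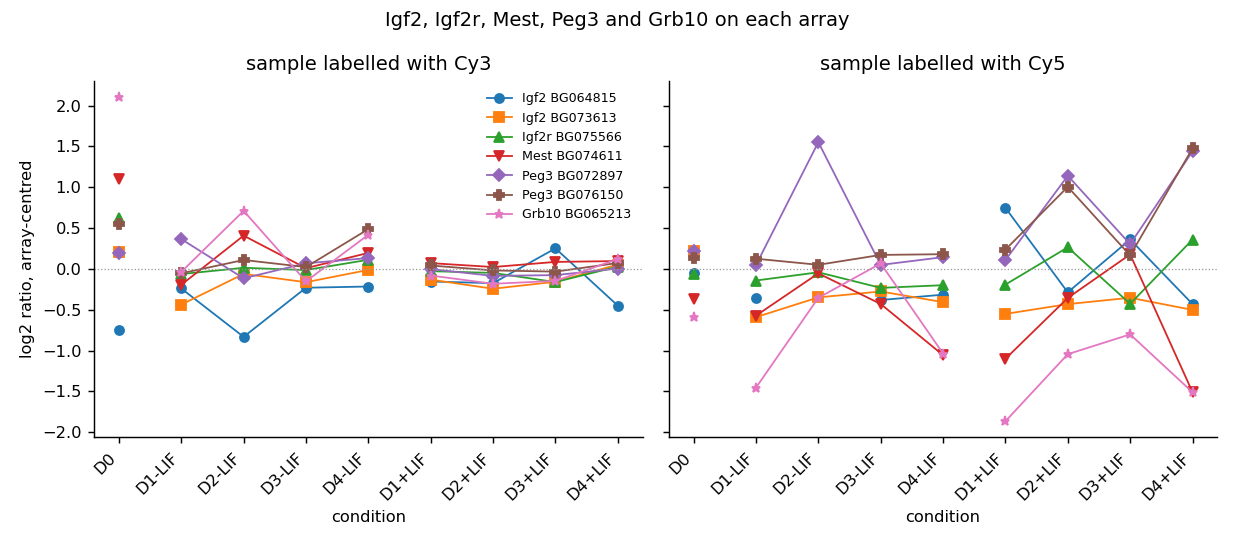
Log2 ratios of the Igf2, Igf2r, Mest, Peg3 and Grb10 clones (vertical axis, 0 = median of the array) in the 9 conditions (horizontal axis), by dye. Grb10, at 2.10, and Mest, at 1.10, are highest in D0 on Cy3 only, and the Peg3 clones reach 1.44 and 1.47 in D4+LIF on Cy5 only.

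LIF made no difference that passed for any member clone. Over Days 1 to 4 together the mean difference without minus with LIF ran from -0.39 for Igf2 BG064815 to 0.46 for Grb10 BG065213, with 0 of 17 past the limma threshold and 1 with an unadjusted p under 0.05, against 0% of all clones called and 637 unadjusted. On the single days 0 of the 17 passed as well (0% of all clones on each day). When the D4+LIF Cy3 array was left out, so that its Cy5 array stood alone, 6 calls appeared: Sgce BG072850 and H19 BG075176 in the mean and on Day 4, and H19 BG074329 and Peg3 BG076150 on Day 4, each lower without LIF, with limma adjusted p between 0.00450 and 0.0451. In that setting 25.3% of all tested clones passed in the mean and 41.4% on Day 4. All 4 clones lie on slide 2, which was 0.79 above the median of the remaining D4+LIF array.

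Of 71 other imprinted genes listed, 23 were tested through 26 clones, and 0 clones passed in the step without LIF, in the comparisons with D0 or between the LIF conditions. Their median step was 0.04 and 15 of the 26 were above 0, beside a median of 0.06 and 63.0% above 0 over all tested clones. The 2 of smallest p were Axl BG075854 (a receptor tyrosine kinase; -0.47 ± 0.40 SE) and Dcn BG075532 (decorin, a matrix proteoglycan; -0.24 ± 0.33 SE). Of 32 genes that maintain imprints or act on chromatin there, 20 were tested through 30 clones, with a median step of 0.13, 24 of 30 above 0, and 0 past the threshold. Rbbp4 BG071363, a histone-binding subunit of several chromatin complexes, was at 0.66 ± 0.27 (SE) and Trim28 BG072548, a corepressor, at 0.58 ± 0.40, both with a limma adjusted p of 1.00.

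The IGF pathway list gave 20 clones of 12 genes, with a median step of 0.07 and 0 past the threshold. Pik3ca BG071269, a catalytic subunit of phosphoinositide 3-kinase, was at 0.26 ± 0.24 (SE), and Irs1 BG076068, a docking protein under the insulin and IGF1 receptors, at 0.29 ± 0.26. Sarcoglycan and dystrophin complex genes gave 3 clones of 3 genes, and no partner of Sgce passed: Dtnb BG065407 was at 0.59 ± 0.44 (SE) and Dag1 CK334351 at 0.16 ± 0.68. None of these 4 lists had a clone past the threshold against D0, where 2.13% of all clone-by-condition tests passed.

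Ratios to a pool of the same cells do not show whether a message is present, so the labels could be checked only by direction. Of 20 pluripotency genes, 7 were tested through 12 clones, and their median difference from D0 without LIF was -0.88 on Day 1, -0.26 on Day 2, -0.83 on Day 3 and -0.79 on Day 4. With LIF it was -0.68, -0.70, -0.72 and -1.003 on the same days, below 0 in both series. The medians of all tested clones were -0.21, -0.11, -0.20 and -0.12 without LIF and -0.19, 0.14, -0.08 and 0.25 with LIF. The pluripotency median was below 0 on each dye too, but the size differed. D3-LIF was at -1.30 on Cy3 and -0.26 on Cy5, and D3+LIF at -1.07 and -0.22. Only in D4+LIF was Cy5 the lower, at -1.26 against -0.81. On Day 3, and in D2-LIF at -0.41 on Cy3 and -0.02 on Cy5, the fall therefore rests mostly on the Cy3 arrays. The dyes were nearer each other in D1-LIF (-1.09 on Cy3 and -0.74 on Cy5) and D4-LIF (-0.89 and -0.65). The same held in D1+LIF (-0.83 and -0.69) and D2+LIF (-0.78 and -0.51). Past the limma threshold were 3 of 12 clones on Day 1 (5.65% of all clones) and 3 on Day 3 (3.68%) without LIF, 2 on Day 3 (3.31%) and 2 on Day 4 (4.38%) with LIF, and 0 in the other four conditions. Their median step from D3-LIF to D4-LIF was 0.01. The median of 14 extraembryonic endoderm clones against D0 was -0.38 in D1-LIF (3 of 14 past the threshold) and 0.16 in D4+LIF (3 of 14), with 0 past the threshold elsewhere. The D4+LIF value was thus under the 0.25 of all tested clones. In the other conditions the endoderm median ran from -0.39 in D1+LIF to -0.16 in D2+LIF. By dye the endoderm median in D4+LIF was -0.27 on Cy3 and 0.08 on Cy5. The direction of the 3 endoderm calls in D4+LIF is not given here, and of the 383 calls there over all clones, 378 were lower. In the step without LIF, the medians of the endoderm clones and of 11 fibroblast clones were -0.06 and -0.05. Their part in the values of the imprinted genes was not tested, and no clone of the mesendoderm or trophoblast markers had a value on every array.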

How the data were processed

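The authors scanned 18 two-colour cDNA arrays of 34560 spots (9 conditions, 2 arrays each, dyes exchanged), quantified spots in ImaGene, divided each channel by its mean intensity according to the methods, and deposited a ratio per spot of sample and pooled control. How that ratio was formed from the channels is not given in the sources used here. Clones lie in printed blocks of 360 spots with each copy 160 spots on, and 10140 clones had the same accession at the copy. The 3840 spots of the outer rows, which carry no clone annotation, were left out, and 1 ratio not above 0 was set to missing. Duplicate spots correlated at r = 0.597 to 0.959. Log2 ratios were averaged over the deposited duplicate spots and centred on each array's median. limma 3.58.1 (R 4.3.3) was run on the 8740 clones measured on all arrays, modelling 9 condition means plus the dye as a block, and Benjamini-Hochberg adjustment over all clones at 0.05. The script was tested on simulated data. The number of arrays limits the precision. Each dye is 1 biological repeat, per the labels, so spread between cultures and dyes cannot be told apart. The replicate number is the dye: arrays of different conditions with the same number correlated on average at 0.36 (Cy3) and 0.74 (Cy5), and with different numbers at -0.13, which is why the block stands in the reported fit. The methods' SAM was not run. Gene symbols came from the platform annotation, updated through GeneID to RefSeq (9760 of 9866 clones). Named are every member, the list clones past the threshold or otherwise the 2 of smallest p in the step, and the 5 clones most like Sgce CK334832, the first Sgce clone by spot ID. The members and lists were chosen with earlier results of these data known. Alternatives were as-deposited values, centring within slides or on tested clones, equal spread, quantile normalization, no block, turned Cy3 sign, other sets of clones or arrays, gene averages and leaving out each array. Inclusion of the outer rows, and slide centring together with turned Cy3 sign, were added after seeing the data.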

Additional observations from a re-analysis of the deposited data

Results flagged for a closer look

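From Day 3 to Day 4, Sgce clone CK334832 changed by 0.96 on Cy3 and 1.38 on Cy5 without LIF, and by -0.09 and -0.55 with LIF. Its Cy3 values in D4-LIF, D3+LIF and D4+LIF came from duplicate spots with identical ratios. The difference between the steps was 1.50 ± 0.64 on the log2 scale (SE), with a limma p of 0.0389 before and 0.836 after adjustment over 8740 clones, so it does not pass the correction. It stayed above 0 in every alternative run, at 0.44 with the Cy3 sign turned and from 1.03 to 1.96 when single arrays were left out. No group had more than 2 arrays, so no sample was tested as an outlier of its group.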

How the results depend on the processing

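No member clone passed in the step from D3-LIF to D4-LIF under any alternative, and the change of Sgce CK334832 there kept its direction. The 4 calls against D0, all of Sgce CK334832 and lower, gave way to 6 calls with values as deposited, all in D4+LIF: 1 was CK334832, lower, and 5 were Sgce BG072850 and H19 BG074072, BG074103, BG074329 and BG075176, higher. Centring within each slide left 2 calls and centring on the tested clones left 2, in each case CK334832 lower and BG072850 higher in D4+LIF, so that 3 of the 4 calls were lost. With the clones of a gene averaged, 1 call was made. The calls became 0 with equal median absolute deviation, after quantile normalization, in the fit with no replicate block (no dye term, so not paired by dye), with the Cy3 sign turned (slide centred or not), with clones measured on 1 array or more of each condition, and with only the arrays compared. Of all clones, 1490 calls (1484 lower) against D0 became 3734 (480 lower) as deposited, 589 (350 lower) centred within slides, 760 (440 lower) centred on the tested clones, 446 with 1 array or more and 185 (72 lower) with only the arrays compared, and 0 under the settings of equal spread, quantiles, no block and turned sign. The cause was not tested.

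Differences without a further name are steps from D3-LIF to D4-LIF, on the log2 scale. With slide centring and the Cy3 sign turned, chosen after seeing the data, these had the opposite direction: Sgce BG072850 was 0.016, H19 BG063261 was 0.23, H19 BG074072 was -0.021, H19 CK334923 was -0.039, Igf2 BG064815 was -0.061, Igf2 BG073613 was -0.10, Igf2r BG075566 was -0.011, Peg3 BG076150 was -0.19, Sgce CK334832 for D3-LIF minus D0 was 0.18, Sgce CK334832 for D4-LIF minus D0 was 0.43, Sgce CK334832 for D1+LIF minus D0 was 0.40, Grb10 BG065213 for D1+LIF minus D0 was 1.23. Centred within slides, these had the opposite direction: H19 BG063261 was 0.072, H19 BG074072 was -0.038, H19 CK334923 was -0.069, Igf2 BG073613 was -0.065. With the Cy3 sign turned, these had the opposite direction: H19 BG063261 was 0.31, H19 BG074072 was -0.057, H19 CK334923 was -0.075, Igf2 BG073613 was -0.14, Igf2r BG075566 was -0.047, Peg3 BG076150 was -0.23, Sgce CK334832 for D3-LIF minus D0 was 0.25, Sgce CK334832 for D4-LIF minus D0 was 0.46, Sgce CK334832 for D1+LIF minus D0 was 0.46, Sgce CK334832 for D2+LIF minus D0 was 0.38, Grb10 BG065213 for D1+LIF minus D0 was 0.45. As deposited, these had the opposite direction: H19 BG074072 was -0.076, H19 CK334923 was -0.11, Igf2 BG064815 was -0.074, Igf2 BG073613 was -0.10, Igf2r BG075566 was -0.035, Peg3 BG072897 was -0.035. Centred on the tested clones, these had the opposite direction: H19 BG074072 was -0.037, H19 CK334923 was -0.068, Igf2 BG064815 was -0.035, Igf2 BG073613 was -0.065. With equal median absolute deviation, these had the opposite direction: H19 BG074072 was -0.025, Sgce CK334832 for D1+LIF minus D0 was 0.084, Sgce CK334832 for D2+LIF minus D0 was 0.22, Sgce CK334832 for Day 4: without minus with LIF was -0.20. After quantile normalization, these had the opposite direction: H19 BG074072 was -0.049, Grb10 BG065213 was 0.12.

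The median step of the other imprinted genes, 0.04, was -0.069 (as deposited), -0.027 (centred within slides), -0.030 (centred on the tested clones), -0.061 (with the Cy3 sign turned), -0.025 (with slide centring and the Cy3 sign turned).

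With 1 array left out at a time, the calls of member clones against D0 ran from 0 (without D0 Cy3) to 17 (without D0 Cy5). Those 17 were 8 of H19 BG063261, higher, and, lower, 5 of Grb10, 3 of Sgce CK334832 and 1 of H19 CK334923. Without D4+LIF Cy3 there were 11: lower were 4 of Sgce CK334832, 2 of Igf2 BG073613 and 1 of Mest, and higher 1 each of Sgce BG072850, Peg3 BG076150, H19 BG075176 and H19 BG074103. Calls between LIF conditions ran from 0 to 6, the 6 without D4+LIF Cy3. All clones gave 517 calls against D0 without D0 Cy3, 3537 without D0 Cy5 and 5674 without D4+LIF Cy3. The step of Sgce CK334832 ran from 0.71 to 1.64 and the median of the other imprinted genes from -0.094 to 0.18. Sgce BG072850 was 0.0071 without D3-LIF Cy3 and 0.030 without D4-LIF Cy5, H19 BG063261 was 0.092 without D3-LIF Cy3, H19 CK334923 was -0.046 without D4-LIF Cy5, and the median of the other imprinted genes was 0.15 without D3-LIF Cy3 and -0.054 without D3-LIF Cy5. Steps whose direction changed had these ranges: Sgce BG072850 -0.26 to 0.030, H19 BG063261 -0.27 to 0.17, H19 BG074103 -0.20 to 0.10, H19 BG074329 -0.31 to 0.18, H19 BG075175 -0.17 to 0.022, H19 BG075176 -0.25 to 0.091, H19 CK334923 -0.13 to 0.14, Igf2 BG064815 -0.14 to 0.22, Igf2 BG073613 -0.069 to 0.089, Igf2r BG075566 -0.025 to 0.18, Mest BG074611 -0.48 to 0.043, Peg3 BG072897 -0.21 to 0.37, Peg3 BG076150 -0.084 to 0.56, Grb10 BG065213 -1.10 to 0.57. A condition left with 1 array was assumed to vary like the others.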
